A study of Mus musculus with 24 samples.

Results

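The genes described here are 34 genes of cholesterol synthesis, sterol sensing, uptake, efflux and esterification, chosen by their names from the 54532 genes of the count table. The list was made with earlier results of these data known. All 34 were found. By role they comprise 8 genes of the mevalonate and isoprenoid steps, 12 of the squalene and sterol steps, 5 of sterol sensing and regulation, 2 of sterol transfer and uptake, 4 of efflux and 3 of esterification.

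RNA was sequenced from the livers of 24 male mice aged 8 to 10 weeks after a 24 h fast, and the 6 groups held 4 mice each. Rab30KO mice lack exon 4 of Rab30, a small GTPase of the Golgi, in the whole body, and Rab30 Ctrl are their littermates without the deletion. The other groups carry floxed alleles, and Cre under the albumin promoter, whose activity is in hepatocytes, deletes Rab30 in Rab30L-/- livers, Cpt2 in Cpt2L-/- livers and both genes in DKO livers, and Cpt2 encodes an enzyme that mitochondria need to oxidize long chain fatty acids. The ff;ff mice are littermates of the DKO mice that carry both floxed genes without Cre, and here they are also the controls of Rab30L-/- and Cpt2L-/-. Rab30KO against Rab30 Ctrl and DKO against ff;ff are thus comparisons between littermates, while in every other comparison litter and genotype cannot be told apart.

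Cholesterol is built from acetyl-CoA through mevalonate, isoprenoid diphosphates and squalene, and lanosterol is then trimmed to cholesterol by a chain of enzymes in the endoplasmic reticulum. When sterol in this membrane is scarce, Scap carries the transcription factor encoded by Srebf2 to the Golgi for cleavage, and the cleaved factor raises most genes of synthesis, while the Insig proteins hold Scap back when sterol is plentiful. The liver also takes cholesterol from high density lipoprotein through Scarb1, exports it to lipoprotein through Abca1 and Abcg1 and to bile through Abcg5 and Abcg8, and stores it as ester.

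Library totals ran from 11801027 to 24497738 counts, with a median of 14358966. Counts were compared as CPM, each gene's share of the library total after TMM scaling. A call required an adjusted p under 0.05 from edgeR's quasi-likelihood test and at least a 1.2-fold change. Rab30 was at 6.64 to 30.1 CPM in Rab30 Ctrl, 5.39 to 17.4 in Rab30KO, 25.9 to 44.6 in ff;ff, 10.4 to 26.6 in Rab30L-/-, 122 to 188 in Cpt2L-/- and 101 to 231 in DKO, and was not called lower in any comparison. Cpt2 was at 128 to 139 CPM in ff;ff and 95.3 to 167 in Cpt2L-/-, which overlapped (log2 fold change -0.07 (adjusted p = 0.788)), and at 169.7 to 268 in Rab30L-/- and 96.1 to 120.0 in DKO, where it was called lower (log2 fold change -1.07 (adjusted p = 0.000449)). A count over the whole gene includes exons that were kept and is no check of the deletion, so the group names below are those of the labels. All groups expressed the hepatocyte markers (Alb, Ttr and others, 6 in all), which summed to 92950 to 126147 CPM in ff;ff and 44528 to 52923 in Cpt2L-/-, with 3 of 6 called lower, and to 74973 to 90976 in Rab30L-/- and 58513 to 70943 in DKO, with 2 of 6 called lower. Alb made up most of these sums, with means of 83067 CPM in ff;ff, 31608 in Cpt2L-/-, 59230 in Rab30L-/- and 45805 in DKO. Apoa1, Cps1 and Hnf4a were not called in Cpt2L-/- against ff;ff, nor were Alb, Cps1, Tat and Hnf4a in DKO against Rab30L-/-. Of all genes 11.9% and 15.8% were called lower in these comparisons. The part of these markers in the changes below was not tested. Of the markers of other cells, none of 6 of stellate cells and fibroblasts, 1 of 6 of endothelial cells and 1 of 5 of bile duct cells were called in Cpt2L-/- against ff;ff, each lower, and those of lymphocytes and neutrophils were too low to be tested. In bulk tissue, fewer cells of a type and less RNA per cell cannot be told apart.

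Promoter windows from RefSeq on GRCm38.p6, the build of the count table, run from 250 bases before to 50 bases after each start site, and 27 of the 34 genes had one. Fdft1, Fdps, Sqle, Stard4, Soat2, Abcg1 and Scarb1 had none. The letters TCACNCCAC, a sterol regulatory element to which the Srebf2 product binds, and CCAAT, the box bound by NF-Y, which acts beside it at sterol genes, were searched on both strands. TCACNCCAC stood in 1.24% of all 32851 windows and in that of Hmgcs1 alone among the 27 genes. Only these letters were searched, so sterol elements spelled otherwise or lying outside the windows were not covered. CCAAT stood in 37.4% of all windows and in 70.6% of the 34 windows of these genes, with 24 of the 27 genes holding it in at least 1 window. The windows of Ebp, Tm7sf2, Lcat and Insig1 are shown because these genes were called lower in both Cpt2L-/- and DKO against ff;ff, and that of Hmgcs1 because it holds both motifs and the gene did not fall. Capitals mark the motifs, a CCAAT box on the opposite strand reads ATTGG, and no marked motif overlapped another.
Ebp, chrX:8193463-8193762, minus strand: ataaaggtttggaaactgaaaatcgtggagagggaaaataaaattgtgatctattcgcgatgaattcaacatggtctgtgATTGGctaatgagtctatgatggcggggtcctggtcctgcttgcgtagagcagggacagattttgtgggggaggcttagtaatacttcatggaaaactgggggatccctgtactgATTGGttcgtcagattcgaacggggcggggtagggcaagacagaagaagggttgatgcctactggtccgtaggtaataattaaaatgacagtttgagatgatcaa
Tm7sf2, chr19:6067801-6068100, minus strand: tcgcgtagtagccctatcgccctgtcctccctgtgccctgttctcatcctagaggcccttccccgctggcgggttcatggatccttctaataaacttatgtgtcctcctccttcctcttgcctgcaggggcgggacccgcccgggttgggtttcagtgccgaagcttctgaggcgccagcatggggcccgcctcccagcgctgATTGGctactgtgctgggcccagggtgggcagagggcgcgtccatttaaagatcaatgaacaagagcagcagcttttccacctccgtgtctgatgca
Lcat, chr8:105943353-105943652, minus strand: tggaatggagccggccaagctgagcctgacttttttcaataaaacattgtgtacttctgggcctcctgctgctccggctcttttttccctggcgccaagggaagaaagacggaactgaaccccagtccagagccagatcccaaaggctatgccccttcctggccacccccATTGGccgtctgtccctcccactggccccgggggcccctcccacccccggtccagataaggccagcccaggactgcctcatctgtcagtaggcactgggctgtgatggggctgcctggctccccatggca
Insig1, chr5:28071162-28071461, plus strand: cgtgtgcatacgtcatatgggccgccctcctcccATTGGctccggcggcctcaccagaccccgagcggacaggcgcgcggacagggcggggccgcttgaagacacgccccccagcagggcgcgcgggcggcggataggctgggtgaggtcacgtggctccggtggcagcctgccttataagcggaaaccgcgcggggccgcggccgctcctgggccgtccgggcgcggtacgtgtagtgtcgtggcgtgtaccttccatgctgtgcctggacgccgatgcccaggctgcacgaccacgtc
Hmgcs1, chr13:119690101-119690400, plus strand: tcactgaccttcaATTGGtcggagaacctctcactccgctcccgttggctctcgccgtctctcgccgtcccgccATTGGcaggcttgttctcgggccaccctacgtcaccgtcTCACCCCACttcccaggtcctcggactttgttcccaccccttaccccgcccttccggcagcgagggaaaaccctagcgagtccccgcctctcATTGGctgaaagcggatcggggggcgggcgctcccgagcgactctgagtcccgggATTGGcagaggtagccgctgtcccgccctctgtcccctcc
In the window of Ebp the CCAAT letters began 170 and 55 bases before the start site on the opposite strand. The windows of Tm7sf2, Lcat and Insig1 held 1 each, on the opposite strand. Hmgcs1 held the sterol element 137 bases before its start site and 4 CCAAT boxes. The matched genes with no CCAAT in a window were Acat2, Scap and Abca1.

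Levels per length (FPKM, which divides by gene length and library size) spanned a wide range. Lcat, the secreted enzyme that esterifies cholesterol on plasma lipoprotein, had the highest FPKM of the set in 5 of the 6 groups, at 381 ± 52.9 FPKM (SD, n = 4) in ff;ff. Insig2 came first in Cpt2L-/- livers, at 286 ± 69.7 FPKM, and second in the others. Lcat was at 218 ± 7.80 FPKM in Cpt2L-/-, within these SDs of Insig2, and lay above it in replicate 1 (219 against 194 FPKM). Among the enzymes of synthesis Ebp was highest when averaged over the groups, at 64.7 ± 4.22 FPKM in ff;ff. The lowest were Soat1, the cholesterol esterifying enzyme of most cells other than hepatocytes, at 0.601 ± 0.0463 FPKM, and Fdps, which makes farnesyl diphosphate, at 0.208 ± 0.146 FPKM in ff;ff. In DKO livers Lcat and Insig2 did not differ beyond their SDs (272 ± 26.4 and 210.2 ± 72.9 FPKM), nor did Ebp and Abcg5 there (32.5 ± 3.22 and 32.1 ± 9.60). Scarb1 was at rank 8 of 34 by FPKM in ff;ff and at rank 14 in both Cpt2L-/- and DKO. Fdps has close processed copies in the genome and how reads shared with them were counted is not given, so its level is uncertain.

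**Figure D1:**
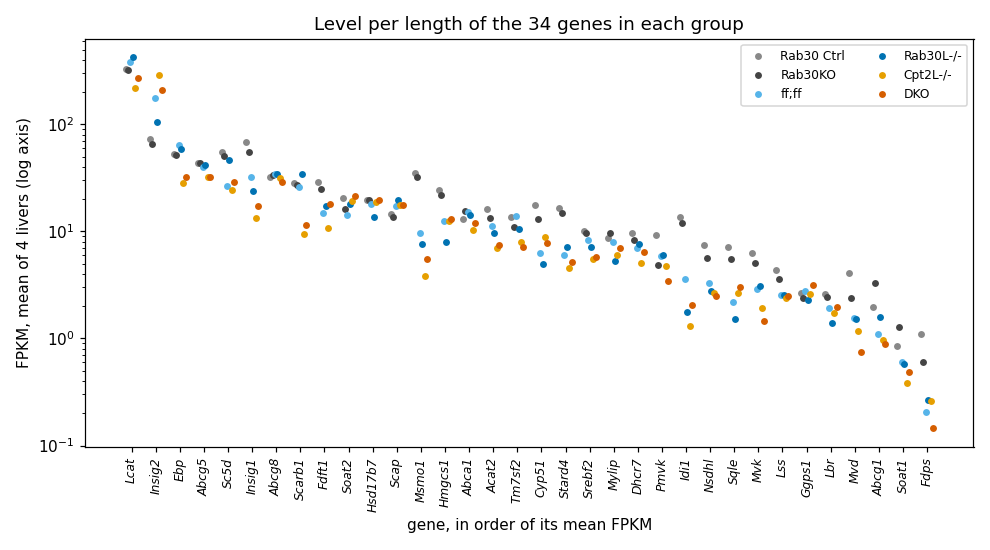
FPKM of each of the 34 genes on a log axis, with genes in order of their mean over the groups and 1 point per group (mean of 4 livers). Lcat and Insig2 sit at the top and Fdps at the bottom, and the 2 groups of the Rab30KO colony, in light and dark grey, sit above the others for Msmo1 and Idi1.

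Loss of Cpt2 in the liver was compared in 2 pairs that share no library. In Cpt2L-/- against ff;ff 7 of the 34 genes were called and all 7 were lower, where 23.8% of all 13270 genes tested were called, 11.9% lower and 11.9% higher. DESeq2 called 10, of which 1, Insig2, was higher, where it called 20.8% of all genes, and 15 passed at an unadjusted p under 0.05, where 35.7% of all genes did. The median log2 fold change of the 34 was -0.35, against -0.00 for all genes tested. In DKO against Rab30L-/- 13 of 34 were called, 9 lower and 4 higher, where 30.7% of all genes were called, 15.8% lower and 14.9% higher. Here the median of the 34 was -0.28 and that of all genes -0.01. DKO against ff;ff, which shares its libraries with both pairs, gave 6 lower and 1 higher of 33 genes tested (Fdps was too low to be tested), where 16.1% of all genes were called, 8.24% lower and 7.87% higher. The share of these genes called lower was above that of all genes in each of the 3 comparisons. Because the 34 genes were listed with earlier results of these data known, these shares describe the list and do not test it. The share called higher was below that of all genes in Cpt2L-/- against ff;ff and DKO against ff;ff, and near it in DKO against Rab30L-/-.

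Scarb1, Ebp, Tm7sf2 and Lcat were called lower in both pairs, which is 4 of the 7 genes lower in the first pair and 4 of the 9 in the second, and no member was called higher in both. Of all 12970 genes tested in both pairs 870 (6.71%) were called lower in both and 814 higher in both. Without overlap between the 4 and 4 livers, 7 genes were lower in Cpt2L-/- than in ff;ff and none was higher, where 12.5% of all genes were lower and 14.2% higher in this way. In DKO against Rab30L-/- 7 genes were lower and 3 higher without overlap, against 15.5% and 15.9% of all genes. In DKO against Rab30L-/- the count of 13 depended on single livers and on the fit. It was 7 without Rab30L-/- replicate 2, 7 without DKO replicate 1 and 8 without DKO replicate 4. The fit over all 24 libraries lost the calls of Hmgcs1, Pmvk, Mvd, Cyp51, Tm7sf2, Hsd17b7, Sc5d and Abcg1. In DKO against ff;ff the count was 4 without DKO replicate 1.

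**Figure D2:**
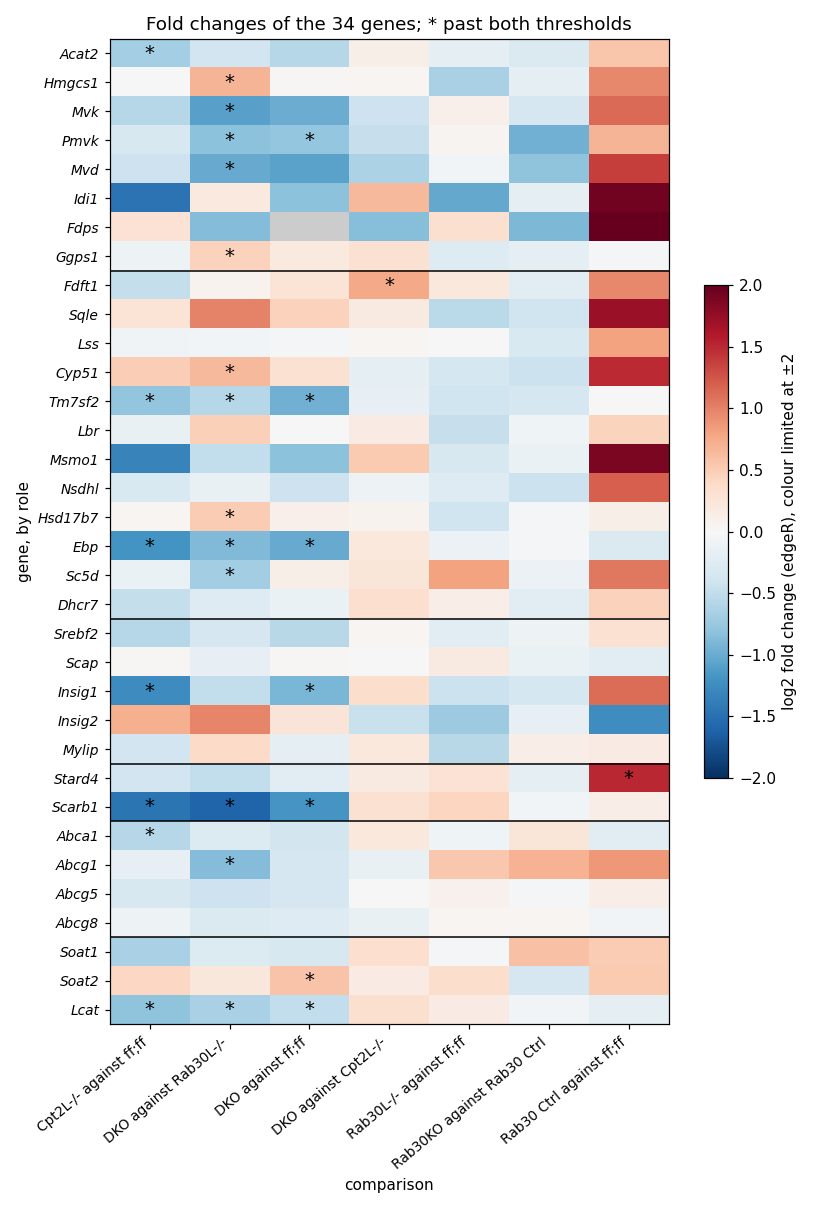
log2 fold change of each of the 34 genes (rows, grouped by role) in 7 comparisons (columns), blue lower and red higher in the first-named group, with an asterisk where both thresholds were passed and grey where a gene was not tested. Scarb1, Ebp, Tm7sf2 and Lcat carry an asterisk in each of the first 3 columns, and the columns of Rab30 loss alone carry none.

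Scarb1 had the largest fall of the called genes in both pairs and encodes the receptor through which hepatocytes take cholesterol ester from high density lipoprotein (ENSMUSG00000037936, chromosome 5, 125277087 to 125341094, minus strand). Its level was 174, 191, 282 and 216 CPM in the 4 ff;ff livers and 98.2, 82.3, 61.8 and 72.6 in the 4 Cpt2L-/- livers. In the other pair it was 317, 281, 224 and 341 CPM in Rab30L-/- and 95.4, 131, 77.5 and 81.0 in DKO. Every liver without Cpt2 lay below every liver that kept it, the 8 of the Rab30KO colony (182 to 304 in Rab30 Ctrl and 167 to 307 in Rab30KO) included. The log2 fold change was -1.46 ± 0.19 (SE; adjusted p = 0.000134) in Cpt2L-/- against ff;ff, -1.60 ± 0.20 (SE; adjusted p = 0.000204) in DKO against Rab30L-/- and -1.18 ± 0.20 (SE; adjusted p = 0.00233) in DKO against ff;ff. Each of these calls held with any 1 library left out. Stard4, the other gene of this role, which moves sterol between membranes in the cytosol, was at 19.4 to 44.7 CPM in ff;ff, 30.6 to 49.3 in Rab30L-/-, 17.3 to 32.9 in Cpt2L-/- and 17.2 to 42.1 in DKO, and was called in none of these 3 comparisons.

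**Figure D3:**
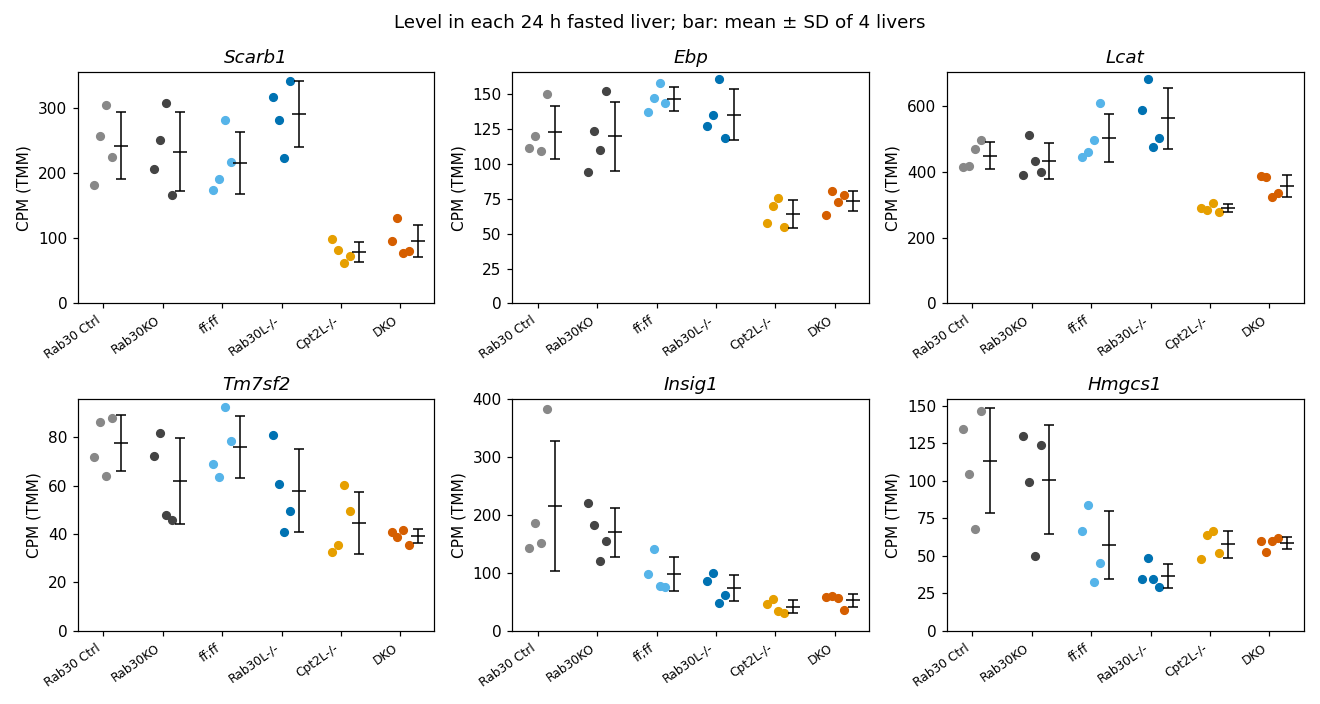
CPM of 6 genes in each of the 24 livers (points) with the mean ± SD of each group of 4 (bars), on axes that start at 0. For Scarb1, Ebp and Lcat all 8 Cpt2L-/- and DKO livers lie below the 8 ff;ff and Rab30L-/- livers, whereas Hmgcs1 in Cpt2L-/- and DKO lies within the range of ff;ff.

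Ebp, the sterol isomerase that moves a double bond in the ring late in the pathway (ENSMUSG00000031168, chromosome X, 8185329 to 8193512, minus strand), was the most strongly changed enzyme of synthesis by adjusted p. It was at 137, 147, 158 and 144 CPM in ff;ff and at 57.4, 69.7, 75.5 and 54.8 in Cpt2L-/-. Rab30L-/- livers had 127, 135, 161 and 119 CPM and DKO livers 63.7, 80.4, 72.5 and 77.8. The 8 livers without Cpt2 all lay below the other 16. Its log2 fold change was -1.20 ± 0.14 (SE; adjusted p = 6.16e-05) in Cpt2L-/- against ff;ff, -0.88 ± 0.13 (SE; adjusted p = 0.000481) in DKO against Rab30L-/- and -1.003 ± 0.13 (SE; adjusted p = 0.000403) in DKO against ff;ff, and these calls held with each library left out.

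Tm7sf2, a sterol reductase that acts after the lanosterol demethylase, fell as well. Its level was 69.2, 63.8, 92.8 and 78.3 CPM in ff;ff and 32.6, 35.4, 60.2 and 49.7 in Cpt2L-/-, without overlap. Rab30L-/- livers ranged widely, at 80.9, 60.8, 40.8 and 49.4 CPM, and the DKO livers, at 40.8, 38.9, 41.8 and 35.3, overlapped with them through Rab30L-/- replicate 3. Its log2 fold change was -0.79 ± 0.20 (SE; adjusted p = 0.0111) in Cpt2L-/- against ff;ff, -0.96 ± 0.15 (SE; adjusted p = 0.00116) in DKO against ff;ff and -0.56 ± 0.19 (SE; adjusted p = 0.0456) in DKO against Rab30L-/-. The last call was lost without any one of Rab30L-/- replicates 1, 2 and 4, DKO replicates 1, 2, 3 and 4 (adjusted p 0.0528 to 0.11) and in a fit over all 24 libraries, whereas the others held. The gene model of Tm7sf2 in the count table spans 6062821 to 6077197 on chromosome 19 and overlaps 2 other genes of the same strand, Vps51 and Gm28374, so reads could have been split or counted for either gene. Over the 24 libraries Tm7sf2 had 21868 counts, Vps51 557 and Gm28374 0. The start site of its printed promoter lies inside this model. Lbr, a nuclear envelope protein with the same reductase activity, was not called in these comparisons, with log2 fold changes of -0.15 (adjusted p = 0.583) and 0.48 (adjusted p = 0.0667) in the 2 pairs, and in the second pair all 4 DKO livers (7.88 to 9.89 CPM) lay above the 4 Rab30L-/- livers (4.93 to 7.42).

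A further 3 genes of the squalene and sterol steps were called in DKO against Rab30L-/- and in no other comparison of Cpt2 loss. Cyp51, the lanosterol demethylase, was at 26.4, 28.0, 15.3 and 17.1 CPM in Rab30L-/- and 34.6, 25.8, 42.3 and 33.4 in DKO, which overlapped through DKO replicate 2, with a log2 fold change of 0.65 ± 0.22 (SE; adjusted p = 0.0461). This was lost without any one of Rab30L-/- replicates 3 and 4, DKO replicates 1, 3 and 4 (adjusted p 0.0738 to 0.117) and in the fit over all 24 libraries. Cyp51 overlaps the gene Akap9 on the opposite strand, which was not called there (log2 fold change 0.11, adjusted p = 0.534 from edgeR). Hsd17b7, a sterol ketoreductase, was at 86.8, 65.8, 68.1 and 56.4 CPM in Rab30L-/- and 105, 105, 104 and 78.2 in DKO. These groups overlapped and the log2 fold change was 0.50 ± 0.16 (SE; adjusted p = 0.031). It was lost without any one of Rab30L-/- replicates 2, 3 and 4, DKO replicates 1, 2 and 3 (adjusted p 0.0583 to 0.092) and in the fit over all libraries. Sc5d, a sterol desaturase, went the other way, at 199, 212, 265 and 229.8 CPM in Rab30L-/- and 156, 191, 75.5 and 134 in DKO without overlap, with a log2 fold change of -0.70 ± 0.24 (SE; adjusted p = 0.0456). Its call was lost without any one of Rab30L-/- replicates 1, 2, 3 and 4, DKO replicates 1 and 4 (adjusted p 0.0569 to 0.106), in the fit over all libraries and without a filter on low counts. The ff;ff livers had 175, 143, 77.0 and 118 CPM of Sc5d, all below the Rab30L-/- livers, and Cpt2L-/- against ff;ff gave -0.13 (adjusted p = 0.708).

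Fdft1, squalene synthase, which commits the pathway to sterol, was the only member called between DKO and Cpt2L-/- livers. Cpt2L-/- livers had 54.0, 40.5, 45.1 and 39.3 CPM and DKO livers 79.1, 90.6, 64.6 and 66.5, without overlap. The log2 fold change was 0.76 ± 0.15 (SE; adjusted p = 0.0242), and ff;ff (33.0 to 82.4 CPM) and Rab30L-/- livers (64.0 to 77.7) overlapped the DKO livers, and the former overlapped the Cpt2L-/- livers as well. The call was lost without any one of DKO replicates 1 and 2, Cpt2L-/- replicates 2, 3 and 4 (adjusted p 0.0546 to 0.1) and in the fit over all 24 libraries. In that comparison 1 of 34 members was called and 2.71% of all genes were. Fdft1 overlaps Ctsb, a lysosomal protease gene on the opposite strand with 185073 counts over the 24 libraries against 29957 for Fdft1, and Ctsb itself had a log2 fold change of 0.11 (adjusted p = 0.66 from edgeR) there.

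edgeR called none of Sqle, Lss, Msmo1, Nsdhl and Dhcr7 in the comparisons of Cpt2 loss, whereas DESeq2 called Msmo1 in Cpt2L-/- against ff;ff and Sqle in DKO against Rab30L-/-. Msmo1, the sterol methyl oxidase, had the lowest mean of the groups in Cpt2L-/-, at 16.3, 37.6, 21.8 and 16.9 CPM, against 69.6, 100.2, 30.9 and 31.1 in ff;ff. The groups overlapped by 1 Cpt2L-/- liver and 2 ff;ff livers, and the log2 fold change of -1.34 ± 0.45 (SE; adjusted p = 0.0628) missed the threshold. It was called without ff;ff replicate 3, ff;ff replicate 4 or Cpt2L-/- replicate 2 (adjusted p 0.0261 to 0.0414) and in the fit over all 24 libraries. The highest adjusted p of Msmo1 with a library left out was 0.157. Sqle, the epoxidase, was at 6.60 to 26.1 CPM in ff;ff, 5.41 to 12.0 in Rab30L-/-, 6.86 to 23.0 in Cpt2L-/- and 7.55 to 27.9 in DKO. Lss, Nsdhl and Dhcr7 had log2 fold changes between -0.47 and -0.06 in the 2 pairs.

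In the mevalonate and isoprenoid steps 1 of 8 genes was called in Cpt2L-/- against ff;ff, lower, and 5 in DKO against Rab30L-/-, 3 lower and 2 higher, where 23.8% and 30.7% of all genes were called. Hmgcs1, the synthase that makes the precursor of mevalonate, had nearly equal means in ff;ff (66.1, 83.8, 32.5 and 45.2 CPM) and Cpt2L-/- (47.8, 63.8, 66.5 and 51.8), with a log2 fold change of 0.00 (adjusted p = 0.999). In the second pair Rab30L-/- livers had 34.5, 48.2, 34.3 and 29.3 CPM and DKO livers 59.8, 52.3, 59.6 and 61.6. All 4 DKO livers were above all 4 Rab30L-/- livers, with a log2 fold change of 0.68 ± 0.15 (SE; adjusted p = 0.00611) that held with each library left out but not in the fit over all 24 libraries. The 4 DKO livers lay inside the range of ff;ff, and the lowest Rab30L-/- liver lay below it.

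Mvk, Pmvk and Mvd encode the enzymes that phosphorylate and decarboxylate mevalonate, and all were called lower in DKO against Rab30L-/-. Mvk was at 6.72, 8.66, 8.30 and 9.03 CPM in Rab30L-/- and 3.21, 2.97, 6.05 and 3.14 in DKO, without overlap and with a log2 fold change of -1.09 ± 0.25 (SE; adjusted p = 0.00755) that held with each library left out. Pmvk was at 9.06, 9.90, 13.3 and 9.03 CPM in Rab30L-/- and 4.75, 5.10, 7.87 and 5.63 in DKO, also without overlap. Its log2 fold change of -0.82 ± 0.21 (SE; adjusted p = 0.0118) was lost in the fit over all 24 libraries alone. Mvd had 4.08, 2.97, 2.56 and 1.52 CPM in Rab30L-/- and 0.977, 1.29, 1.30 and 1.88 in DKO, which overlapped by 1 liver of each group. The log2 fold change of Mvd was -1.01 ± 0.35 (SE; adjusted p = 0.0456) and was lost without any one of Rab30L-/- replicates 1, 2 and 3, DKO replicates 1, 2 and 3 (adjusted p 0.0668 to 0.129), in the fit over all libraries and without a filter. Against ff;ff, where the livers had 7.24 to 12.8 CPM, the log2 fold change of Pmvk in DKO was -0.77 ± 0.24 (SE; adjusted p = 0.0475) and was lost without any one of DKO replicates 1, 2 and 4, ff;ff replicates 2 and 3 (adjusted p 0.0854 to 0.15) and in the fit over all libraries. In Cpt2L-/- against ff;ff the log2 fold changes of Mvk, Pmvk and Mvd were -0.57 (adjusted p = 0.175), -0.31 (adjusted p = 0.389) and -0.42 (adjusted p = 0.374).

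Acat2, the cytosolic thiolase that joins acetyl-CoA units at the head of the pathway, was called lower in Cpt2L-/-. It was at 33.5, 30.04, 16.3 and 32.1 CPM in ff;ff and 19.99, 15.8, 19.1 and 15.3 in Cpt2L-/-. The ff;ff replicate 3 lay within the Cpt2L-/- range and the other 3 above it. The log2 fold change of -0.68 ± 0.21 (SE; adjusted p = 0.0309) was lost without any one of ff;ff replicates 1, 2 and 4, Cpt2L-/- replicates 2, 3 and 4 (adjusted p 0.0517 to 0.0948), and in DKO against Rab30L-/- it was -0.38 (adjusted p = 0.0859). The near-identical neighbour gene Acat3 fell from 74.2 to 104 CPM in ff;ff to 12.99 to 24.9 in Cpt2L-/- (log2 fold change -2.20, adjusted p = 1.02e-05 from edgeR). How reads shared by the copies were counted is not given, and the value of Acat2 is uncertain. Ggps1, which makes geranylgeranyl diphosphate for protein prenylation, was at 8.68, 11.1, 11.5 and 11.7 CPM in Rab30L-/- and 13.1, 14.0, 15.9 and 16.1 in DKO, higher without overlap. Its log2 fold change was 0.46 ± 0.14 (SE; adjusted p = 0.0317) and was lost without any one of Rab30L-/- replicates 1 and 2, DKO replicates 3 and 4 (adjusted p 0.0602 to 0.0722) and without a filter. Ggps1 is overlapped on the opposite strand by Arid4b, which was not called (log2 fold change 0.23, adjusted p = 0.125 from edgeR). Idi1, the isomerase that follows Mvd, was at 5.23 to 25.5 CPM in ff;ff and 2.69 to 7.62 in Cpt2L-/-, with a log2 fold change of -1.47 ± 0.57 (SE; adjusted p = 0.0967) that missed the threshold and was called without ff;ff replicate 4 alone (adjusted p = 0.046). Over the fits with a library left out, the fold change of Idi1 ranged from -1.86 to -0.82 (adjusted p 0.046 to 0.209).

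Of the 5 genes of sterol sensing, edgeR called Insig1 alone, in Cpt2L-/- and DKO against ff;ff, and none in DKO against Rab30L-/-. Of all genes 23.8%, 16.1% and 30.7% were called in these comparisons. Insig1, itself a target of the sterol transcription factor, was at 98.2, 140.4, 78.0 and 75.0 CPM in ff;ff and 45.7, 54.5, 34.4 and 30.04 in Cpt2L-/-, without overlap. Rab30L-/- livers had 85.6, 99.1, 48.2 and 61.0 CPM and DKO livers 57.9, 60.7, 55.7 and 35.5, which overlapped. For Insig1 the log2 fold change was -1.26 ± 0.24 (SE; adjusted p = 0.00197) in Cpt2L-/- against ff;ff, -0.91 ± 0.23 (SE; adjusted p = 0.0181) in DKO against ff;ff and -0.49 ± 0.25 (SE; adjusted p = 0.164) in DKO against Rab30L-/-. The call in Cpt2L-/- held with each library left out, and that in DKO against ff;ff was lost without ff;ff replicate 2 (adjusted p = 0.0519). Insig2, the second Insig gene, was at 489, 570.1, 909.8 and 420.3 CPM in ff;ff and 662, 998, 1262 and 1016 in Cpt2L-/-. Rab30L-/- livers spread from 123 to 796 CPM, and DKO livers from 499 to 941. Its log2 fold change in Cpt2L-/- against ff;ff was 0.71 ± 0.25 (SE; adjusted p = 0.0602), and it was called without ff;ff replicate 3 or Cpt2L-/- replicate 1 (adjusted p 0.00392 to 0.0314), by DESeq2 and without a filter. With other libraries left out the adjusted p of Insig2 rose to as much as 0.166.

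Srebf2 encodes the transcription factor of the pathway. It was at 36.9, 83.4, 57.4 and 55.4 CPM in ff;ff and 40.8, 43.7, 33.5 and 40.1 in Cpt2L-/-. The groups overlapped through ff;ff replicate 1, the log2 fold change was -0.57 ± 0.21 (SE; adjusted p = 0.0684), and it was called without that liver (adjusted p = 0.00914) and without a filter. Over the fits with a library left out, the fold change of Srebf2 ranged from -0.74 to -0.35 (adjusted p 0.00914 to 0.234). Scap, the escort of the factor, had means of 126 ± 29.4 CPM (SD, n = 4) in ff;ff and 129.7 ± 11.1 in Cpt2L-/-. Mylip, a ubiquitin ligase that degrades lipoprotein receptors, was at 20.6 to 29.2 CPM in ff;ff, 13.2 to 19.3 in Rab30L-/-, 17.98 to 21.2 in Cpt2L-/- and 17.8 to 27.1 in DKO, and was called in none of these comparisons.

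Of the 4 efflux genes 1 was called in each pair, near the 23.8% and 30.7% of all genes. All 4 had log2 fold changes below 0 in both pairs, where 50.3% and 51.0% of all genes did. Abca1, which loads cholesterol onto apolipoprotein A-I, was at 211, 138, 138 and 135 CPM in ff;ff and 88.6, 116, 106 and 110.1 in Cpt2L-/-. The groups did not overlap and ff;ff replicate 1 stood above the other ff;ff livers. Its log2 fold change was -0.58 ± 0.17 (SE; adjusted p = 0.0262), lost without any one of Cpt2L-/- replicates 1, 3 and 4 (adjusted p 0.0563 to 0.0757), and it was -0.39 without ff;ff replicate 1, where it was still called. In DKO against Rab30L-/- it was -0.28 (adjusted p = 0.139). Abcg1, which passes cholesterol to high density lipoprotein and is high in macrophages, was at 4.60, 9.90, 6.29 and 5.01 CPM in Rab30L-/- and 3.002, 4.32, 4.16 and 2.58 in DKO, without overlap and with a log2 fold change of -0.87 ± 0.28 (SE; adjusted p = 0.0371), and of -0.17 (adjusted p = 0.711) in Cpt2L-/- against ff;ff. This call was lost without any one of Rab30L-/- replicates 2 and 3, DKO replicates 1 and 4 (adjusted p 0.0593 to 0.119) and in the fit over all libraries. In the same comparison 6 of 8 markers of Kupffer cells and macrophages were called lower and 1, Cd68, higher. Their sum was 205 to 590 CPM in Rab30L-/- (highest in replicate 2, as for Abcg1) and 145 to 202 in DKO, and their part in the change of Abcg1 was not tested. In Cpt2L-/- against ff;ff 3 of the 8 markers were called lower and 1, Cd68, higher.

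Abcg5 and Abcg8, which form the pump for sterol into bile, sit head to head on chromosome 17 and overlap in the count table. Abcg5 was at 107 ± 30.2 CPM (SD, n = 4) in ff;ff, 113 ± 18.2 in Rab30L-/-, 86.6 ± 21.1 in Cpt2L-/- and 85.3 ± 25.2 in DKO. Abcg8 was at 125 ± 27.5, 129 ± 23.6, 118 ± 49.2 and 106 ± 28.2 CPM in the same groups. Neither was called in any comparison, and their log2 fold changes in the 2 pairs lay between -0.41 and -0.10.

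Lcat was lower in both pairs (ENSMUSG00000035237, chromosome 8, 105939551 to 105943382, minus strand). It was at 445, 461, 497 and 608 CPM in ff;ff and 289, 284, 306 and 278 in Cpt2L-/-. Rab30L-/- livers had 587, 684, 477 and 503 CPM and DKO livers 389, 384, 322 and 337. No liver without Cpt2 reached the level of a liver of ff;ff or Rab30L-/-. The log2 fold change was -0.81 ± 0.14 (SE; adjusted p = 0.0012) in Cpt2L-/- against ff;ff and -0.65 ± 0.16 (SE; adjusted p = 0.00891) in DKO against Rab30L-/-, both of which held with each library left out. In DKO against ff;ff it was -0.50 ± 0.15 (SE; adjusted p = 0.0447), lost without any one of DKO replicates 1, 2, 3 and 4, ff;ff replicates 2, 3 and 4 (adjusted p 0.0621 to 0.14) and without a filter. Soat2, the esterifying enzyme of hepatocytes, was at 28.8, 36.1, 25.7 and 33.7 CPM in ff;ff and 41.9, 37.3, 58.5 and 48.7 in DKO, higher without overlap, with a log2 fold change of 0.58 ± 0.17 (SE; adjusted p = 0.0384). That call was lost without any one of DKO replicates 1, 3 and 4, ff;ff replicates 1, 3 and 4 (adjusted p 0.0595 to 0.115). Soat1 was at 5.26 to 6.35 CPM in ff;ff and 2.88 to 5.04 in Cpt2L-/- without overlap, and its log2 fold change of -0.65 ± 0.23 (SE; adjusted p = 0.0551) missed the threshold and was called by DESeq2 and without Cpt2L-/- replicate 2 (adjusted p = 0.025). With other libraries left out its adjusted p rose to as much as 0.15.

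Loss of Rab30 was compared on its own in 2 designs and beside loss of Cpt2. In Rab30L-/- against ff;ff edgeR called 0 of 34 members and 0.479% of all genes. DESeq2 called 1 member (Sc5d) and 1.94% of all genes, and 6 members passed at an unadjusted p under 0.05, where 11.2% of all genes did. Sc5d had a log2 fold change of 0.81 ± 0.22 (SE; adjusted p = 0.168) and Mylip of -0.56 ± 0.17 (SE; adjusted p = 0.24). In Rab30KO against Rab30 Ctrl edgeR and DESeq2 each called 0 of 34, where edgeR called 0.022% and DESeq2 0.0549% of all genes. All 20 synthesis genes had a log2 fold change below 0 there, with a median of -0.26, where 50.7% of all genes were below 0. In Rab30L-/- against ff;ff 13 of the 20 were below 0, with a median of -0.23, and in DKO against Cpt2L-/- 7 of the 20, with a median of 0.09. The 20 genes were measured in the same libraries, and Rab30KO replicate 3 was the lowest of its group in 14 of them. One member, Pmvk, passed at an unadjusted p under 0.05 with a log2 fold change of -0.95, where 2.21% of all genes passed. The interaction, the effect of Rab30 loss in livers without Cpt2 less that in livers with it, gave 0 calls with edgeR, where 4.06% of all genes were called. DESeq2 called 1, Mylip, and 6.66% of all genes, and 5 members passed at an unadjusted p under 0.05, where 21.7% of all genes did. Mylip had an interaction of 0.77 ± 0.23 (SE; adjusted p = 0.0625), which was called without ff;ff replicate 1.

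Several synthesis genes had higher means in both groups of the Rab30KO colony than in the 4 groups with floxed alleles. Msmo1 was at 231, 204, 150.1 and 283 CPM in Rab30 Ctrl and 236, 229.5, 80.7 and 246 in Rab30KO, against 69.6, 100.2, 30.9 and 31.1 in ff;ff. All 4 Rab30 Ctrl livers were above all ff;ff livers, while Rab30KO replicate 3 lay inside the ff;ff range. Idi1 was at 66.5, 41.6, 28.4 and 55.9 CPM in Rab30 Ctrl, 56.9, 42.7, 14.2 and 55.5 in Rab30KO and 13.3, 25.5, 5.23 and 5.33 in ff;ff. Stard4 was at 107, 69.1, 79.8 and 121 CPM in Rab30 Ctrl, 98.9, 84.7, 40.1 and 109.6 in Rab30KO and 37.3, 44.7, 19.4 and 29.5 in ff;ff. Sqle, at 24.2 to 63.8 CPM in Rab30 Ctrl and 6.60 to 26.1 in ff;ff, and Cyp51, at 33.7 to 111 and 17.5 to 49.7, had higher means in Rab30 Ctrl but overlapped through ff;ff replicate 2.

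**Figure D4:**
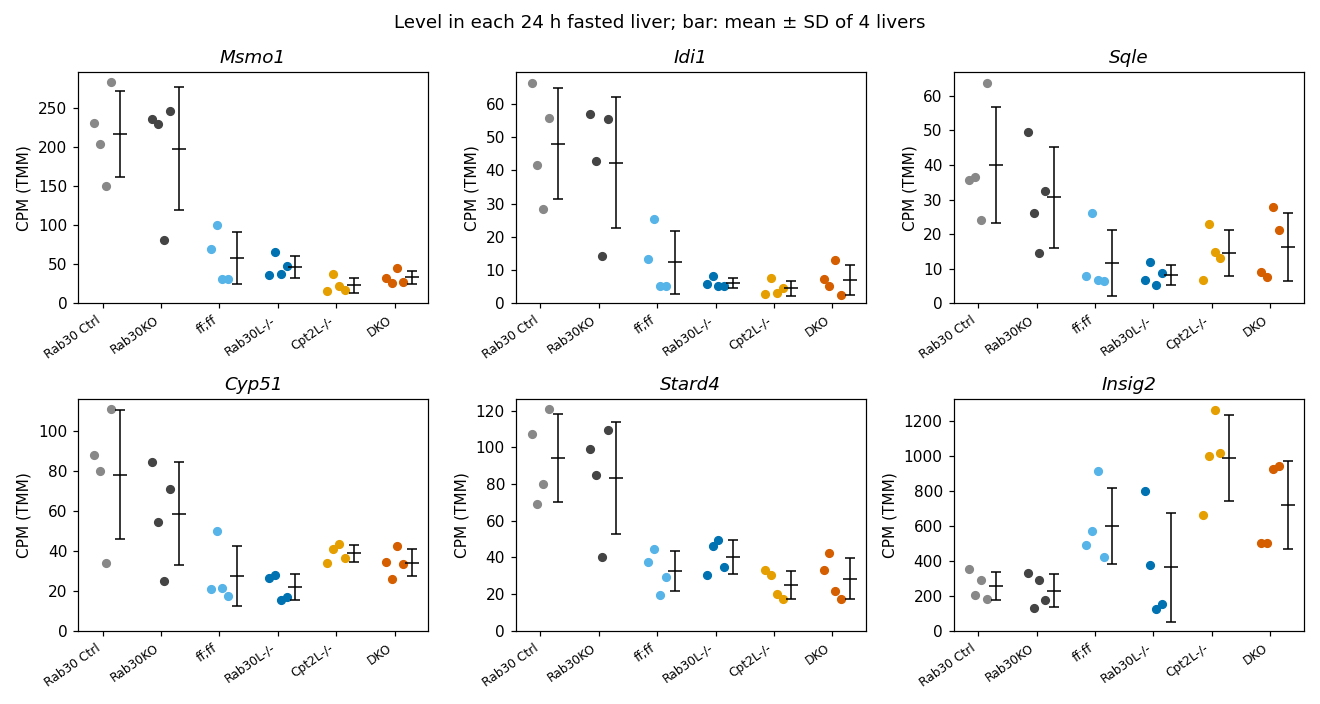
CPM of 6 genes in each of the 24 livers (points) with the mean ± SD of each group of 4 (bars), on axes that start at 0. Msmo1, Idi1 and Stard4 are higher in Rab30 Ctrl than in ff;ff with Rab30KO replicate 3 below its group, and the means of Insig2 are lower in both groups of the Rab30KO colony than in ff;ff.

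The comparison of the control groups, Rab30 Ctrl against ff;ff, was added after the data had been seen. The groups differ in litter and in floxed alleles, which cannot be told apart. edgeR called 1 of 34 members, Stard4, at a log2 fold change of 1.501 ± 0.26 (SE; adjusted p = 0.0255), and 0.949% of all genes, 0.736% higher and 0.213% lower. The call of Stard4 was lost without ff;ff replicate 4 or Rab30 Ctrl replicate 3 (adjusted p 0.0542 to 0.0683). The number of members called changed with the method: DESeq2 called 12 (3.51% of all genes), the fit over all 24 libraries 9 (2.07%) and the fit without a filter 6 (1.35%), and without ff;ff replicate 2 edgeR called 5 (0.55%). Without overlap, 10 members were higher in Rab30 Ctrl and 1, Insig2, lower, where 5.7% and 2.59% of all genes were. The log2 fold changes were 1.88 (adjusted p = 0.0515) for Msmo1, 1.05 (adjusted p = 0.0547) for Sc5d and -1.25 (adjusted p = 0.0602) for Insig2. Of the 20 synthesis genes 2 had a log2 fold change below 0, with a median of 0.97 against -0.00 for all genes tested. Ebp, Tm7sf2, Scarb1 and Lcat, which were lower without Cpt2, had log2 fold changes of -0.28 (adjusted p = 0.471), 0.00 (adjusted p = 0.996), 0.14 (adjusted p = 0.835) and -0.19 (adjusted p = 0.689). In the same comparison 3 of 8 Kupffer cell and macrophage markers were called higher (sum 329 to 555 CPM in Rab30 Ctrl and 153 to 288 in ff;ff). The 6 endothelial markers summed to 242 to 307 CPM in Rab30 Ctrl and 157 to 231 in ff;ff, and none was called. The part of these cells in the differences was not tested.

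Within groups, single livers were high or low for many synthesis genes at once. Rab30KO replicate 3 was the lowest of its group in 14 of the 20 genes, and Rab30 Ctrl replicate 3 in 14 also. Rab30 Ctrl replicate 4 was the highest in 16, ff;ff replicate 2 in 12, and Rab30KO replicate 1 and DKO replicate 3 in 11 each. Outside these 20, Insig1 was at 142, 186, 152 and 382 CPM in the Rab30 Ctrl livers, with replicate 4 above the rest. Rab30KO replicate 3 also had the highest Abcg1 of the 24 livers (14.99, 5.69, 24.8 and 7.70 CPM in Rab30KO) and the highest Soat1 (13.6, 4.17, 24.1 and 8.54), with a Kupffer cell and macrophage marker sum of 1132 CPM against 234 to 586 in the rest of its group. These values rest on a single library, and the part of such cells in its Abcg1 and Soat1 was not tested.

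Of 39 other genes of sterol handling, listed with earlier results of these data known, 38 were tested. In Cpt2L-/- against ff;ff 7 were called higher and 8 lower, in DKO against Rab30L-/- 6 and 8, and in DKO against ff;ff 7 and 6, where 23.8%, 30.7% and 16.1% of all genes were called in these comparisons. Of 9 genes of sterol transport and lysosomal release, 2 were higher and 2 lower in each of the 2 pairs, and 2 higher in DKO against ff;ff. Lipa, the lysosomal acid lipase, had log2 fold changes of 1.66 (adjusted p = 3.65e-05), 1.26 (adjusted p = 0.00016) and 1.54 (adjusted p = 0.000247) in these comparisons in that order, and Nceh1, a cholesterol ester hydrolase, 1.42 (adjusted p = 2.12e-05), 1.53 (adjusted p = 7.64e-05) and 1.41 (adjusted p = 9.37e-05). Gramd1c, which encodes a cholesterol transfer protein, was lower at -0.95 (adjusted p = 0.0124) and -0.62 (adjusted p = 0.0399) in the 2 pairs. Of 4 receptors for lipoproteins and fatty acids, 2 were higher and 1 lower in each pair, and 3 higher and 1 lower in DKO against ff;ff. Cd36 rose by 3.40 (adjusted p = 2.4e-05), 2.96 (adjusted p = 6.56e-05) and 3.08 (adjusted p = 0.000428) on the log2 scale. Vldlr, which takes up triglyceride-rich lipoprotein, rose by 2.75 (adjusted p = 0.0235) in DKO against Rab30L-/- and 2.69 (adjusted p = 0.0219) in DKO against ff;ff, and had 1.37 (adjusted p = 0.067) in Cpt2L-/- against ff;ff. The receptor that was lower was Lrp1, at -0.82 (adjusted p = 0.0115), -1.15 (adjusted p = 0.00618) and -0.85 (adjusted p = 0.0268), which is named here after its values were seen. In DKO against Cpt2L-/- 1 of the 4, Sort1, a sorting receptor, was lower at -0.72 (adjusted p = 0.0147), where 2.71% of all genes were called.

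Enzymes and regulators around the pathway changed in both directions. Cyp7b1, an oxysterol hydroxylase, was lower, with log2 fold changes of -2.30 (adjusted p = 0.00033), -2.52 (adjusted p = 0.0449) and -1.89 (adjusted p = 0.00849) in the same order. Of 3 genes of cytosolic acetyl-CoA supply, 2 fell in each comparison, where 11.9%, 15.8% and 8.24% of all genes were called lower. Acly, which cleaves citrate, was at log2 fold changes of -0.81 (adjusted p = 0.00124) and -1.004 (adjusted p = 0.00116) in the 2 pairs, and Acss2, which activates acetate, at -0.59 (adjusted p = 0.0165) and -0.69 (adjusted p = 0.00415). Srebf1, the sister gene of Srebf2 that drives fatty acid synthesis, fell at -1.02 (adjusted p = 0.00142) and -0.75 (adjusted p = 0.00529). Of the 9 genes of its list, on sterol factor processing, Srebf1 alone was called in Cpt2L-/- against ff;ff, lower, and 3 in DKO against Rab30L-/-, 1 higher and 2 lower, beside 23.8% and 30.7% of all genes. Of 5 genes of the LXR receptors and their targets, 2 were called in Cpt2L-/- against ff;ff and 1 in DKO against Rab30L-/-, each higher, beside 11.9% and 14.9% of all genes. Between DKO and Cpt2L-/- 1 of the 5 was called lower, where 2.71% of all genes were called in either direction. Lpcat3, a phospholipid acyltransferase, rose at 0.70 (adjusted p = 0.00272) and 0.72 (adjusted p = 0.00359). In the isoprenoid branch 1 of 6 genes, Fntb, a subunit of protein farnesyltransferase, was called in the first pair, at 0.99 (adjusted p = 0.00694). Of all genes 11.9% were called higher there.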

How the data were processed

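Total RNA from 24 flash frozen livers was sequenced. Per the labels, the authors' pipeline named HISAT2 and DESeq2 on GRCm38/mm10; the counting program and its strand setting are not given in the sources used here. The deposited table of counts per gene, not normalized, was the base of every test. The FPKM values the authors deposited were used only to compare levels between genes. Other deposited tables hold the authors' normalized counts and their own pairwise comparisons, and were not used.

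A fit used only the 8 libraries compared (16 for the interaction), with edgeR 4.0.16 in R 4.3.3: filterByExpr, TMM, robust quasi-likelihood fit and test, with Benjamini-Hochberg adjustment over all genes tested. A gene was called at an adjusted p under 0.05 and at least 1.2-fold. Printed CPM were TMM-scaled over all 24 libraries. Labels give each liver as a separate sample and no batch or pairing, and replicates are numbered in accession order only. Replicate libraries of a group differed by more than sampling noise in every pair (chi-square over degrees of freedom 13.4 to 109).

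Alternatives were DESeq2 1.42.0 (its Wald test, or its size factors in edgeR), a fit over all 24 libraries, no filter, no fold threshold, a minimum of 10 counts in each library, FPKM against TMM-scaled counts per kilobase for the order of levels, and each library left out in turn. The members and all other lists were chosen with earlier results of these data known. Per-library values are given for members called in at least 1 comparison, ordered by role and size of change, with up to 3 called genes of each other list. The comparison of Rab30 Ctrl with ff;ff was added after the data had been seen.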

Additional observations from a re-analysis of the deposited data

Results flagged for a closer look

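In each of the 34 genes and 6 groups (204 sets of 4 livers), the gap between the highest or lowest liver and its neighbour was set against the whole range of the group by Dixon's criterion. Chance alone passes this in about 1 of 20 sets, and 8 sets passed. In ff;ff, replicate 2 was high for Sqle, at 26.1 CPM against 6.60 to 7.77 in the other livers, and for Cyp51, at 49.7 against 17.5 to 21.2. In the same group replicate 1 was high for Abca1, at 211 CPM against 135 to 138, and low for Lbr, at 7.60 against 9.33 to 9.48. In DKO, replicate 3 was high for Mvk, at 6.05 CPM against 2.97 to 3.21, and replicate 4 was low for Hsd17b7, at 78.2 against 104 to 105. Msmo1 was low in Rab30KO replicate 3, at 80.7 CPM against 229.5 to 246, and Sc5d in Cpt2L-/- replicate 4, at 101 against 123 to 125. The calls of Mvk in DKO against Rab30L-/- and of Abca1 in Cpt2L-/- against ff;ff held without the liver that stood apart, as did that of Hsd17b7.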

How the results depend on the processing

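The number of the 34 genes called in Cpt2L-/- against ff;ff was 5 to 10 with 1 library left out, and no setting moved it by over 1.5 times. In DKO against Rab30L-/- it was 7 to 13 with 1 library left out and 6 in the fit over all 24 libraries. In DKO against ff;ff it was 4 to 8, and in DKO against Cpt2L-/- 0 to 1 and 0 in the fit over all libraries. The count of 0 in Rab30L-/- against ff;ff became 1 with DESeq2 and 1 without a filter, and that of the interaction became 1 with DESeq2 and 0 to 1 with a library left out. In Rab30 Ctrl against ff;ff the count of 1 became 12 with DESeq2, 9 in the fit over all libraries, 6 without a filter and 0 to 5 with a library left out. The cause of these moves was not tested. No log2 fold change of a called gene turned its direction in any setting.

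Over all genes, counts moved by more than 1.5 times in 5 comparisons. The 360 genes of DKO against Cpt2L-/- became 931 with DESeq2, 705 without a filter and 114 in the fit over all libraries. The 64 of Rab30L-/- against ff;ff became 309, 240 and, with at least 10 counts in every library, 25. The 3 of Rab30KO against Rab30 Ctrl became 12 with DESeq2, 9 in the fit over all libraries, 6 without a filter and 0 with the stricter filter. The interaction went from 571 to 1062 with DESeq2 and 374 in the fit over all libraries. The 129 of Rab30 Ctrl against ff;ff became 577, 302 in the fit over all libraries, 352 without a filter and 67 with the stricter one. The order of levels per length moved by at most 1 rank. Fdps was below the filter on low counts in DKO against ff;ff, and the part of depth was not tested.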
